A study of Mus musculus with 12 samples.

Results

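The collagen genes were taken as every row of the count table whose symbol had the form Col, a number, a and a number, which gave 44 of the 18514 genes listed. They were divided into fibrillar collagens (11 genes), basement membrane collagens (8 genes, types IV, XV and XVIII), type VI (6 genes), fibril-associated collagens (9 genes), transmembrane collagens (4 genes) and a last class of short-chain, anchoring and remaining collagens (6 genes). Of the 44, 38 had enough reads to be tested.

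Colorectal tissue of male C57BL/6 mice, bought at 4 weeks of age, was sequenced with 1 library per mouse and 3 mice in each of 4 groups. Ctrl mice drank ordinary water, and Ctrl_Swim mice did the same and swam for up to 90 min per day, starting 2 months ahead of the experiment. Model mice received 1 intraperitoneal dose of azoxymethane (AOM), a carcinogen, at 10 mg/kg, followed by 3 cycles of 2% dextran sulfate sodium (DSS) in the drinking water for 7 days, each with a recovery period, and Model_Swim mice had this treatment together with swimming. Mice that did not swim were placed in shallow water. The study set out to learn whether swimming changes colitis-associated tumour formation. The labels call the tissue colorectal and do not say whether tumour, mucosa or muscle wall was taken apart for RNA.

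Collagens are matrix proteins built from 3 chains wound into a helix, in which a glycine recurs in each triplet of residues. Fibrillar collagens form the cables of the submucosa, type IV collagens form the sheet under epithelium and around vessels and muscle cells, and type VI forms beaded filaments between them. In the gut most of these chains are made by fibroblasts and other mesenchymal cells, and collagen deposition is a known feature of chronic colitis and of tumour stroma.

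The classes differ in how long the glycine repeat runs, which can be read in the coding sequence, since all glycine codons begin with GG. In the 11 fibrillar genes the longest uninterrupted run of triplets that start with a glycine codon held a median of 338 triplets (range 216 to 344), with Col24a1 and Col27a1 at 216 and 217. The 8 basement membrane genes had a median longest run of 41 triplets (30 to 66), and their repeat was broken into a median of 23.5 runs of at least 5 triplets. Type VI genes had longest runs of 37 to 87 triplets, fibril-associated genes 32 to 113, transmembrane genes 40 to 55 and the last class 23 to 75. Stretches of 30 codons from the GENCODE annotation of GRCm38.p6 are shown for a fibrillar, a basement membrane, a type VI and a transmembrane collagen on which the results below turn, with the glycine codons of the repeat in capitals. They are spliced from neighbouring coding exons, from 15 to 17 of 51 in Col1a1 (chr11:94941574-94942033, plus strand), from 8 to 9 of 52 in Col4a1 (chr8:11244507-11245084, minus strand), from 22 to 23 of 44 in Col6a3 (chr1:90791924-90792445, minus strand) and from 33 to 35 of 54 in Col17a1 (chr19:47657131-47659243, minus strand).
Col1a1: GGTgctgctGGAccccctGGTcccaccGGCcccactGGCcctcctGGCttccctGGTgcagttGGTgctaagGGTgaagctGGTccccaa
Col4a1: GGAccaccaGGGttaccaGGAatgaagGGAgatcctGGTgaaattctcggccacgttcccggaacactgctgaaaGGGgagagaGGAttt
Col6a3: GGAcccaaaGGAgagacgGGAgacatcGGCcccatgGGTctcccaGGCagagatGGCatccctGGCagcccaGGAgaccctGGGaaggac
Col17a1: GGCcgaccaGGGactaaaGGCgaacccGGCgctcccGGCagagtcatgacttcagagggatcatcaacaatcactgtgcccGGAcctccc
The Col1a1 and Col6a3 stretches were taken from inside the longest run of each gene, so they hold a glycine codon in each triplet throughout. Those of Col4a1 and Col17a1 were taken across the end of the longest run, to show the repeat stopping and starting again. The printed stretches therefore do not compare the genes. The longest run held 338 triplets in Col1a1, 40 in Col4a1, 45 in Col6a3 and 55 in Col17a1.

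Total counts were 17256953 to 19451055 per library, and colon epithelium genes were present in every library (summed level of 10 genes 14243 to 31575 CPM, which are reads scaled to library size). Pancreatic acinar genes stood far apart in Model 1 (42432 CPM for 10 genes) and Model 3 (20711 CPM), against 11.1 to 95.4 CPM in the other 10 libraries. Model 2, the other Model mouse, is therefore also compared with Ctrl on its own. Genes of stratified squamous epithelium, which is not part of the colon mucosa, varied within groups as well, as given beside Col17a1.

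Levels are compared between genes as FPKM, which is scaled to transcript length and library size. The 7 highest collagens, Col3a1, Col1a2, Col6a1, Col1a1, Col4a1, Col4a2 and Col6a2, held 73.6 to 79.9% of the summed collagen FPKM of each library. That sum over all 44 genes was 448, 410 and 397 FPKM in the Ctrl mice, 359, 463 and 411 in Ctrl_Swim, 750, 763 and 716 in Model, and 547, 606 and 687 in Model_Swim. All Model mice thus lay above all Model_Swim mice, and both of these groups above all mice without AOM/DSS. As a share of all reads, collagens took 0.219 to 0.281% in the 6 mice without AOM/DSS, 0.441 to 0.466% in Model and 0.334 to 0.419% in Model_Swim. In bulk tissue, more cells of a collagen-making type and more collagen RNA per cell cannot be told apart.

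**Figure D1:**
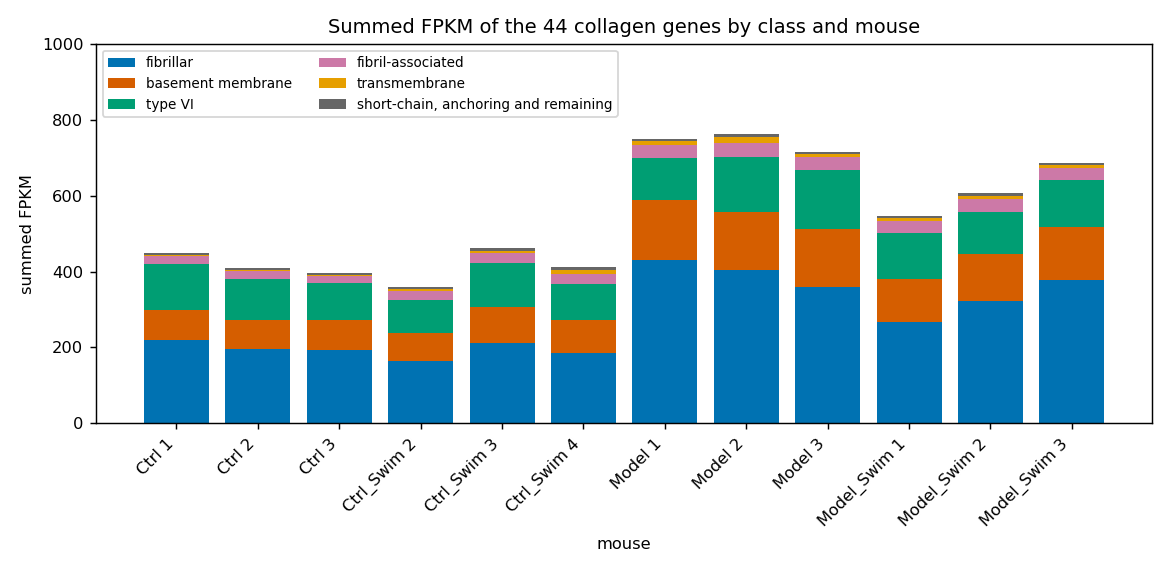
Summed FPKM of the 44 collagen genes in each of the 12 mice, with the colours of a bar showing the 6 classes. The Model bars reach 716 to 763 FPKM and the Model_Swim bars 547 to 687, while the mice without AOM/DSS lie at 359 to 463, and fibrillar genes form the largest block in every mouse.

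The comparison of Model with Ctrl asks how AOM/DSS treatment changed the tissue in mice that did not swim. Of the 38 tested collagens, 18 rose and 1 fell at an adjusted p under 0.05 (edgeR quasi-likelihood test, Benjamini-Hochberg over all 15484 genes tested), so that 47.4% of the tested collagens were higher, where 16.5% of all tested genes were higher and 16.2% lower. In 17 collagens the 3 Model and the 3 Ctrl mice did not overlap, 16 of them higher and 1 lower in Model, which is 44.7% of those tested beside 44.2% of all genes. The share without overlap was thus near that of all genes, but its direction was not, as 20.9% of all genes lay higher and 23.3% lower without overlap. The median log2 fold change was 0.61 over the collagens and 0.0055 over all genes. Taken on its own, Model 2 had a summed collagen FPKM of 763, above the 397 to 448 of the Ctrl mice. The animals were separate mice, and the p-values rest on the spread between mice within groups, estimated over all 4 groups together.

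Fibrillar collagens were raised most widely, 8 of 10 tested, with a median log2 fold change of 0.81. Col1a1 and Col1a2 encode the 2 chains of type I collagen, the main protein of tissue fibrils. Col1a1 was 38.2, 33.1 and 32.9 FPKM in Ctrl mice, 27.0, 35.8 and 31.7 in Ctrl_Swim, 97.6, 77.8 and 69.4 in Model, and 46.4, 61.1 and 76.6 in Model_Swim. Every Model mouse was above every mouse without AOM/DSS, and the highest Model_Swim mouse reached into the Model range. It rose by 1.12 ± 0.18 on the log2 scale (SE, adjusted p = 0.00152, edgeR). Col1a2 was 51.0, 44.4 and 43.2 FPKM in Ctrl, 40.8, 52.6 and 47.8 in Ctrl_Swim, 100.1, 92.4 and 79.6 in Model, and 67.3, 74.7 and 88.6 in Model_Swim. Here too every Model mouse was above every mouse without AOM/DSS and the highest Model_Swim mouse reached into the Model range. Col1a2 rose by 0.86 ± 0.12 on the log2 scale in Model (adjusted p = 0.000981).

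Col3a1, the single chain of type III collagen, which forms finer fibrils in distensible tissue, had the highest FPKM of all collagens. It was 106.7, 95.4 and 95.7 FPKM in Ctrl, 75.8, 98.2 and 83.5 in Ctrl_Swim, 188.7, 186.3 and 170.0 in Model, and 119.0, 148.6 and 175.4 in Model_Swim. Only the highest Model_Swim mouse overlapped the Model mice, and no Model mouse overlapped a mouse without AOM/DSS. Col3a1 rose by 0.76 ± 0.13 on the log2 scale in Model (adjusted p = 0.00223).

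Col5a1, Col5a2 and Col5a3 encode chains of type V collagen, which sits inside type I fibrils and limits their width. Col5a1 was 9.58, 8.69 and 8.56 FPKM in Ctrl, 8.11, 10.02 and 8.57 in Ctrl_Swim, 16.8, 17.3 and 15.4 in Model, and 13.3, 13.8 and 14.6 in Model_Swim. The Model_Swim mice lay in a gap between the other mice, overlapping neither. Col5a2 was 10.3, 8.35 and 9.07 FPKM in Ctrl, 7.71, 9.99 and 8.32 in Ctrl_Swim, 21.1, 23.0 and 15.03 in Model, and 13.1, 16.9 and 17.1 in Model_Swim. Here Model 3 lay within the Model_Swim range. Col5a3, at a lower level, was 1.82, 2.43 and 2.05 FPKM in Ctrl, 1.82, 2.32 and 2.34 in Ctrl_Swim, 3.86, 5.11 and 5.77 in Model, and 3.35, 3.37 and 3.02 in Model_Swim. All 3 genes rose in Model, Col5a1 by 0.77 ± 0.08 (adjusted p = 0.000380), Col5a2 by 0.98 ± 0.16 (adjusted p = 0.00181) and Col5a3 by 1.11 ± 0.15 (adjusted p = 0.000798) on the log2 scale.

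The other 2 fibrillar genes that rose were Col27a1, a minor fibrillar collagen (log2 fold change 0.72, adjusted p = 0.00541), and Col11a2, a chain of type XI collagen known best from cartilage (0.91, adjusted p = 0.0279). Col11a2 lay at 0.134 to 0.413 FPKM over all mice, and its call was lost in 8 of 23 alternative analyses. Col11a1 (0.16) and Col24a1 (-0.02) did not pass the test.

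**Figure D2:**
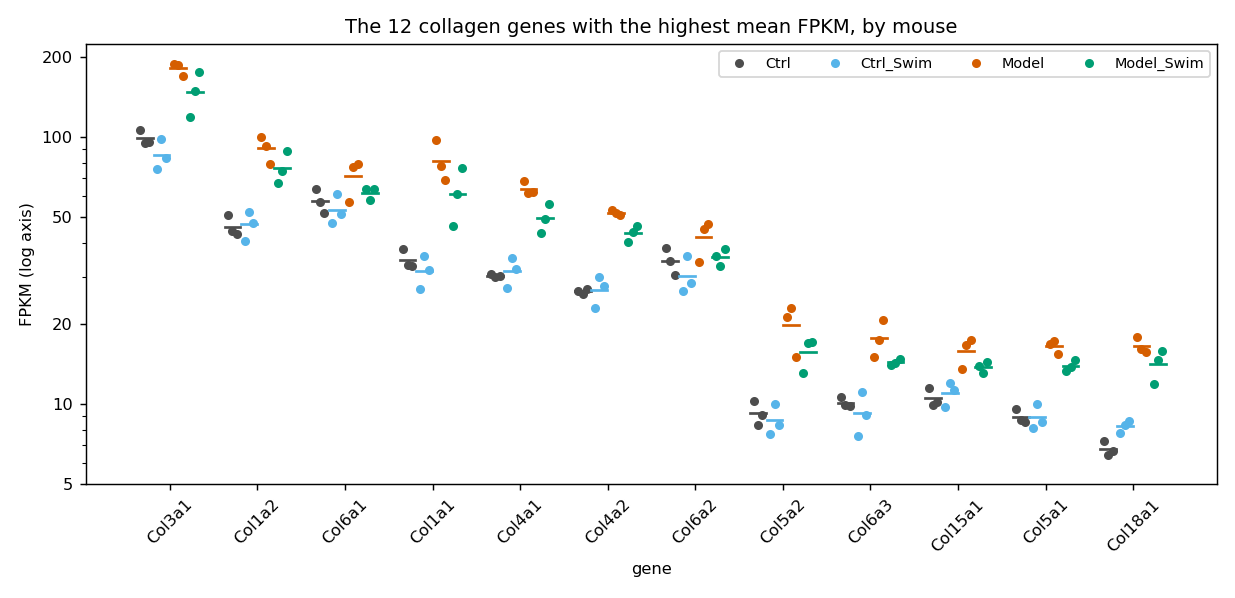
FPKM, on a log axis, of the 12 collagens with the highest mean FPKM, each point a mouse and each line a group mean. Model mice lie above all Ctrl mice in 10 of the 12 genes, the exceptions being Col6a1 and Col6a2, and Col3a1 is the highest gene in every mouse.

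Of the 8 basement membrane genes 4 rose and none fell, with a median log2 fold change of 0.21. Counting type IV alone, 2 of 6 rose. Col4a1 and Col4a2 encode the 2 chains of the common type IV network, and are read in opposite directions on chromosome 8 with annotated ends that overlap by 85 bases. Col4a1 was 30.7, 29.9 and 30.2 FPKM in Ctrl, 27.3, 35.2 and 32.0 in Ctrl_Swim, 68.5, 61.5 and 62.4 in Model, and 43.6, 49.2 and 56.4 in Model_Swim. Col4a2 was 26.5, 25.9 and 26.9 FPKM in Ctrl, 22.9, 30.03 and 27.6 in Ctrl_Swim, 53.5, 52.1 and 51.0 in Model, and 40.6, 44.3 and 46.5 in Model_Swim. In both genes the Model mice were above all Model_Swim mice, which in turn were above all mice without AOM/DSS. Model exceeded Ctrl by 0.97 ± 0.10 for Col4a1 (adjusted p = 0.000357) and by 0.87 ± 0.08 for Col4a2 (adjusted p = 0.000314) on the log2 scale.

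The chains of the more specialised type IV networks showed no such difference. Col4a3 and Col4a4, known from kidney and lung, were at most 0.224 and 0.160 FPKM in any mouse. Col4a5 (2.24 to 4.17 FPKM) and Col4a6 (0.578 to 2.99 FPKM), which contribute to the basement membrane of smooth muscle, are neighbours on the X chromosome. Their log2 fold changes in Model were -0.28, -0.39, -0.06 and -0.35 in the order named, and none passed the test. No gene of the smooth muscle list passed either, with 0 of 10 called in this comparison by edgeR, and 0 of 10 at an unadjusted p under 0.05. Of these genes 8 had a negative log2 fold change. Their summed level was 8509, 8851 and 8863 CPM in Ctrl and, unevenly, 6754, 9971 and 7270 CPM in Model.

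Col15a1 and Col18a1 carry heparan sulfate or chondroitin sulfate chains and border basement membranes, and a fragment of the Col18a1 product is endostatin, an inhibitor of vessel growth. Col15a1 was 11.5, 9.88 and 10.1 FPKM in Ctrl, 9.70, 12.02 and 11.3 in Ctrl_Swim, 13.5, 16.7 and 17.4 in Model, and 13.9, 13.0 and 14.4 in Model_Swim. Col18a1 was 7.27, 6.41 and 6.66 FPKM in Ctrl, 7.78, 8.37 and 8.65 in Ctrl_Swim, 17.9, 16.0 and 15.7 in Model, and 11.8, 14.6 and 15.9 in Model_Swim. In both genes the Model mice were above all mice without AOM/DSS and overlapped the Model_Swim mice. Col18a1 had the lowest adjusted p of all collagens in this comparison (log2 fold change 1.17 ± 0.10, adjusted p = 0.000261), and Col15a1 rose by 0.48 ± 0.10 (adjusted p = 0.00608).

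Type VI collagen is assembled from the products of Col6a1 and Col6a2 and 1 further chain, most often that of Col6a3. Col6a1 was 63.7, 57.1 and 52.1 FPKM in Ctrl, 47.6, 61.5 and 51.5 in Ctrl_Swim, 56.9, 77.6 and 79.4 in Model, and 64.0, 58.2 and 63.8 in Model_Swim. Col6a2 was 38.5, 34.4 and 30.4 FPKM in Ctrl, 26.6, 35.7 and 28.4 in Ctrl_Swim, 34.1, 45.3 and 47.2 in Model, and 35.8, 32.8 and 38.1 in Model_Swim. In both genes Model 1 fell among the Ctrl mice, and neither difference passed the test (log2 fold change 0.19 ± 0.13, adjusted p = 0.282, and 0.18 ± 0.14, adjusted p = 0.359).

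Col6a3 was 10.6, 9.91 and 9.79 FPKM in Ctrl, 7.61, 11.1 and 9.07 in Ctrl_Swim, 15.04, 17.3 and 20.7 in Model, and 14.04, 14.3 and 14.8 in Model_Swim. All mice with AOM/DSS were above all mice without it, and Col6a3 rose by 0.69 ± 0.13 (adjusted p = 0.00319). Col6a5, which encodes an alternative to that further chain, was the 1 collagen that fell, by 0.62 ± 0.20 on the log2 scale (adjusted p = 0.0348), from 2.09 to 2.99 FPKM in Ctrl to 1.19 to 2.10 in Model. Its FPKM ranges overlapped slightly, its CPM ranges did not, and the call was lost in 14 of 25 alternatives. Col6a4, also such an alternative, had a log2 fold change of 0.34 (adjusted p = 0.306).

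Among the fibril-associated collagens, whose products lie on the surface of fibrils, 3 of 7 rose and none fell. Col12a1 rose from 5.14 to 6.27 FPKM in Ctrl to 10.6 to 12.8 in Model (log2 fold change 0.91, adjusted p = 0.000407). Col16a1 rose from 5.31 to 6.45 to 10.01 to 11.3 FPKM (0.69, adjusted p = 0.000863). Col14a1, which binds fibrils as Col12a1 does, was 0.32 higher with an adjusted p of 0.0509, just outside the threshold, and was called in 13 of 25 alternatives, DESeq2 among them. The 3 remaining tested genes of the class that were not called, Col9a2, Col20a1 and Col22a1, had log2 fold changes of 0.30 to 0.93.

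Col9a3, a chain of type IX collagen known from cartilage, was low and uneven. It was 0.329, 0.316 and 0.0871 FPKM in Ctrl, 0.144, 0.409 and 0.334 in Ctrl_Swim, 3.30, 1.08 and 0.332 in Model, and 1.66, 0.947 and 1.47 in Model_Swim. Model 3 was at the level of the upper Ctrl mice, and Model 1 was the highest of all 12 mice. It rose by 2.57 ± 0.75 on the log2 scale (adjusted p = 0.0238), and the call was lost in 9 of 25 alternatives, among them the fits without Model 1 and without any 1 of the 3 Ctrl mice.

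Outside these classes, Col7a1 and Col17a1 both belong to the attachment of stratified epithelium. Col7a1 encodes type VII collagen, the anchoring fibril under the epithelial basement membrane. It was 0.211, 0.112 and 0.273 FPKM in Ctrl, 0.202, 0.196 and 0.386 in Ctrl_Swim, 1.61, 1.57 and 0.982 in Model, and 0.346, 0.731 and 0.604 in Model_Swim. The Model mice stood above all others. Col7a1 rose by 2.68 ± 0.39 on the log2 scale, or 6.41-fold (adjusted p = 0.00111), on 157 to 275 reads in Model and 20 to 49 in Ctrl, and the call held in all 25 alternatives.

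Col17a1 encodes a transmembrane collagen of hemidesmosomes, which tie basal keratinocytes to their basement membrane. It was 0.167, 0.0845 and 0.0187 FPKM in Ctrl, 0.512, 0.209 and 4.68 in Ctrl_Swim, 5.45, 12.6 and 0.115 in Model, and 0.787, 5.26 and 2.78 in Model_Swim. Model 3 lay within the Ctrl range, and Ctrl_Swim 4 was near Model 1. The gene passed the test in Model (log2 fold change 5.92 ± 1.67, adjusted p = 0.0206), with the call lost in 8 of 25 alternatives, including the fits without Model 2 and without any 1 of the Ctrl mice. The summed CPM of 10 squamous epithelium genes, among them Krt5, Krt14 and Trp63, was 13.4, 9.87 and 13.2 in Ctrl, 65.1, 6.54 and 391 in Ctrl_Swim, 532, 1443 and 25.2 in Model, and 139, 995 and 1110 in Model_Swim. Of these 10 genes 9 were higher in Model, beside 16.5% of all genes. With the squamous genes as a covariate the Col17a1 call was lost, and the Col7a1 call was not. The same fit lowered the calls over all genes from 5066 to 2568, and the covariate itself differed between Ctrl and Model. The part of squamous tissue in either gene was not tested.

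**Figure D3:**
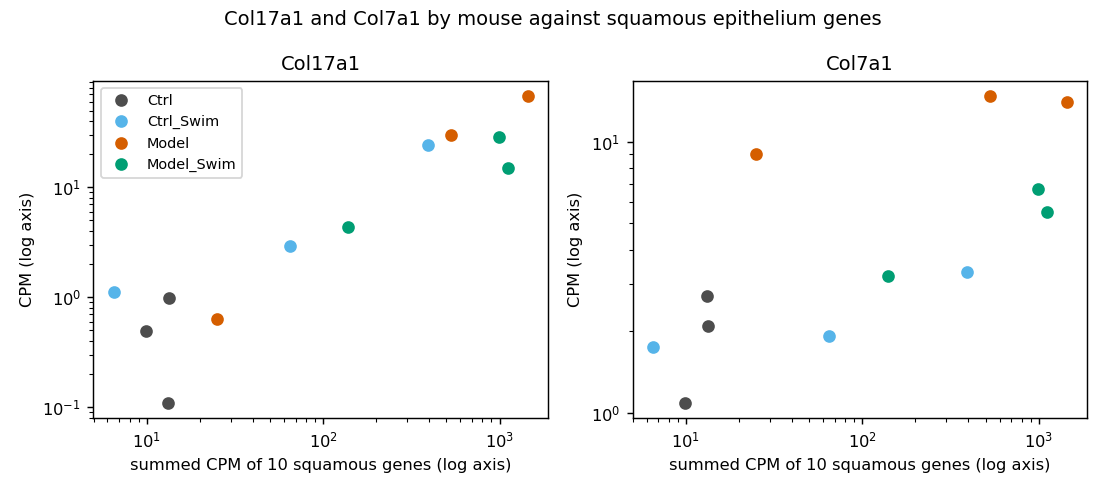
CPM of Col17a1 (left) and Col7a1 (right) in each mouse against the summed CPM of 10 squamous epithelium genes, all on log axes. In Model 3, where the squamous genes sum to 25.2 CPM, Col17a1 is at 0.631 CPM, within the Ctrl range, and Col7a1 at 9.001 CPM, above every mouse outside the Model group.

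The transmembrane collagens Col13a1, Col23a1 and Col25a1 and the short-chain collagens Col8a1 and Col8a2 did not pass the test, nor did Col28a1, with log2 fold changes of -0.70 (Col25a1) to 0.52 (Col23a1). By the stricter rule of an adjusted p under 0.05 with more than a 2-fold change, 6 collagens were higher, Col1a1, Col5a3, Col18a1, Col7a1, Col9a3 and Col17a1, and none lower, beside 6.21% of all genes higher and 1.22% lower. The 6 collagens that were not tested, Col2a1, Col6a6, Col9a1, Col10a1, Col19a1 and Col26a1, had at most 11 reads in any library. Among the 19 calls in this comparison, 14 held under every alternative, namely Col1a1, Col1a2, Col3a1, Col5a1, Col5a2, Col5a3, Col4a1, Col4a2, Col15a1, Col18a1, Col6a3, Col12a1, Col16a1 and Col7a1.

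The makeup of collagen RNA differed between the groups too, described here without a test. Type VI genes made up 26.7, 26.4 and 24.6% of the summed collagen FPKM in Ctrl, 24.5, 25.1 and 23.1% in Ctrl_Swim, 14.8, 19.2 and 21.9% in Model, and 22.0, 18.3 and 18.2% in Model_Swim. All mice with AOM/DSS had a lower type VI share than all mice without it, although the summed type VI FPKM was 97.7 to 119.6 in Ctrl and 111 to 157 in Model. Fibrillar genes made up 49.0, 47.4 and 48.8% in Ctrl, 45.7, 45.9 and 45.2% in Ctrl_Swim, 57.5, 53.1 and 50.2% in Model, and 48.6, 53.0 and 55.004% in Model_Swim. Basement membrane genes held a narrow band of 17.9 to 21.3% in all 12 mice.

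Ratios within a mouse cancel its library size. The ratio of Col1a1 to Col1a2 FPKM, the type I pair, was 0.749, 0.746 and 0.762 in Ctrl, 0.661, 0.680 and 0.662 in Ctrl_Swim, 0.976, 0.842 and 0.872 in Model, and 0.689, 0.818 and 0.865 in Model_Swim. It was lowest in the 3 Ctrl_Swim mice and overlapped between Model and Model_Swim. The ratio of Col3a1 to Col1a1 was 2.79 to 2.91 in Ctrl, 2.63 to 2.81 in Ctrl_Swim, 1.93 to 2.45 in Model and 2.29 to 2.56 in Model_Swim, lower in all mice with AOM/DSS than in all mice without it. Against the other type I chain, Col1a2, a ratio chosen after its values were seen, Col3a1 did not show that order, with 2.09 to 2.22 in Ctrl, 1.74 to 1.87 in Ctrl_Swim, 1.89 to 2.14 in Model and 1.77 to 1.99 in Model_Swim. Col6a1 to Col6a2 stayed between 1.65 and 1.81 in all mice. The ratio of Col6a3 to Col6a1, chosen after its values were seen, was 0.167 to 0.188 in Ctrl, 0.160 to 0.181 in Ctrl_Swim, 0.224 to 0.264 in Model and 0.219 to 0.245 in Model_Swim. Col4a1 to Col4a2 was 1.12 to 1.16 in Ctrl, 1.16 to 1.19 in Ctrl_Swim, 1.18 to 1.28 in Model and 1.07 to 1.21 in Model_Swim.

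**Figure D4:**
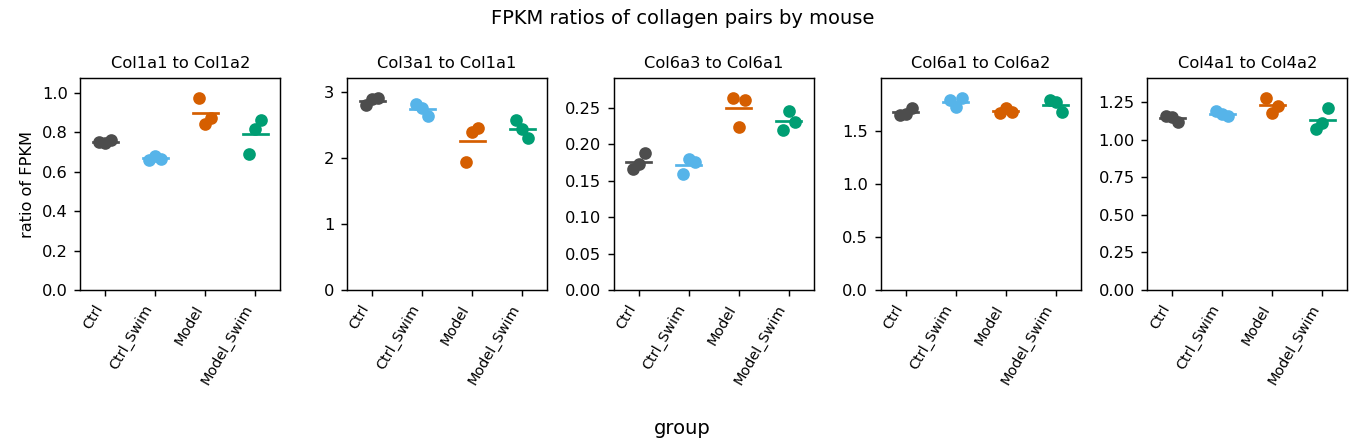
Ratio of the FPKM of 2 collagen genes within each mouse, with a line at each group mean and axes that start at 0. Col6a1 to Col6a2 lies between 1.65 and 1.81 in every mouse, while Col6a3 to Col6a1 is 0.219 or more in all mice with AOM/DSS and 0.188 or less in all mice without it.

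The comparison of Model_Swim with Ctrl_Swim asks the same of mice that swam. It shares no library with the comparison above, although both came from 1 fit with 1 estimate of the spread. Of the 38 tested collagens, 11 rose and none fell, which is 28.9% higher beside 3.49% of all tested genes higher and 1.69% lower. The 11 were the type I chains Col1a1 (log2 fold change 0.99) and Col1a2 (0.74), Col3a1 (0.81), the type V chains Col5a1 (0.67), Col5a2 (0.88) and Col5a3 (0.62), Col4a1 (0.69), Col4a2 (0.74), Col18a1 (0.80), Col6a3 (0.66) and Col12a1 (0.43). Adjusted p-values ran from 0.00277 for Col4a2 to 0.0408 for Col5a3 (edgeR). None changed more than 2-fold, beside 0.924% of all genes that were higher by that rule and 0.0775% that were lower.

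All 11 were among the 18 genes that rose in Model, which is 100% of the 11 and 61.1% of the 18. The genes called in the mice without swimming and not here were Col27a1, Col11a2, Col15a1, Col16a1, Col9a3, Col7a1 and Col17a1, and their log2 fold changes among swimming mice were 0.01, 0.19, 0.35, 0.18, 2.23, 1.13 and 0.78 in that order. Between Model_Swim and Ctrl_Swim 15 tested collagens lay higher and 2 lower without overlap, beside 15.9 and 16.4% of all genes. The count of 11 depended on single libraries, as 5 remained called without Model_Swim 3, 6 without Model_Swim 2, 6 without Ctrl_Swim 2 and 7 without Ctrl_Swim 4. The share called over all genes fell in these fits too, from 5.18% to 1.08, 1.19, 1.81 and 2.92% in that order. Of the 11 calls, 1 (Col4a2) held under every alternative, while Col3a1, Col4a1, Col5a1 and Col18a1 were called in 24 of 25.

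**Figure D5:**
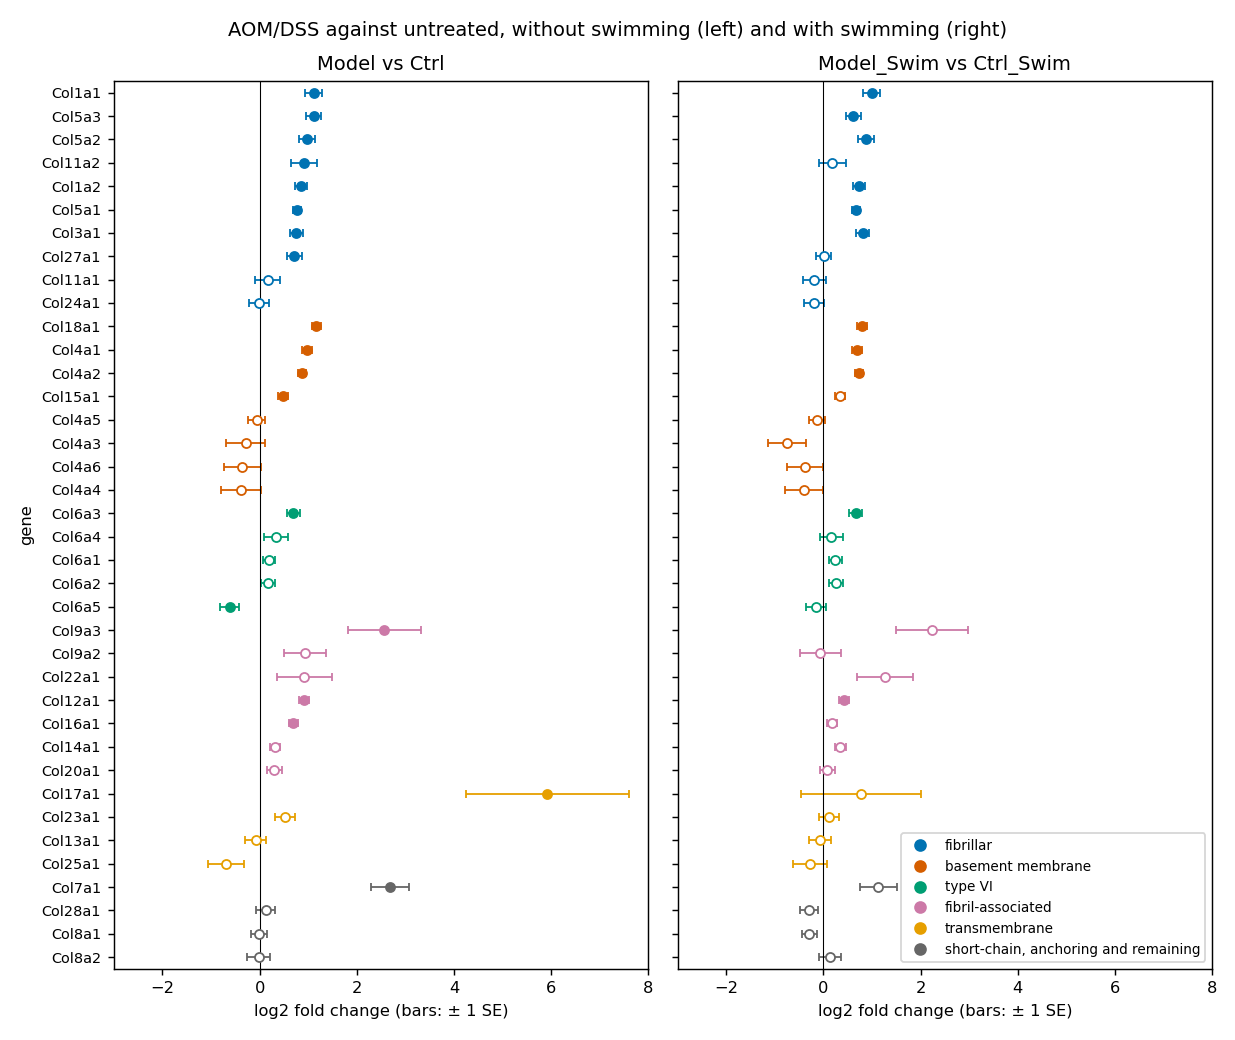
Log2 fold change of the 38 tested collagens with bars of 1 SE, coloured by class, for Model against Ctrl (left) and Model_Swim against Ctrl_Swim (right). Filled points passed an adjusted p under 0.05 (19 on the left, of which Col6a5 is lower, and 11 on the right, all higher).

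The comparison of Model_Swim with Model asks what swimming changed in AOM/DSS mice, and it shares the Model mice with the first comparison. No collagen passed the test in edgeR (0 of 38, beside 0.071% of all genes), 13 had an unadjusted p under 0.05, and the lowest adjusted p was 0.165, for Col5a3. DESeq2 called 3, Col4a1, Col5a3 and Col7a1, all lower in Model_Swim, beside 2.33% of all genes. The median log2 fold change was -0.21, beside -0.0085 over all genes, with 27 collagens below and 11 above 0. Without overlap, 8 tested collagens lay lower in Model_Swim (Col11a2, Col16a1, Col4a1, Col4a2, Col5a1, Col5a3, Col6a3 and Col7a1) and 1 higher (Col25a1, a transmembrane collagen of neurons), beside 8.51% of all genes lower and 8.48% higher. The log2 fold changes were -0.58 ± 0.15 for Col5a3, -1.30 ± 0.37 for Col7a1, -0.36 ± 0.10 for Col4a1 and -0.24 ± 0.08 for Col4a2, and none of these 4 adjusted p-values was under 0.165.

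For all 18 genes that rose in Model, the mean FPKM of Model_Swim lay between those of Ctrl and Model. These means share the Model mice with the choice of the 18 genes, so the order is a description. Without Model 3, edgeR called 3 collagens, Col14a1 and Col25a1 higher and Col7a1 lower in Model_Swim, beside 5.62% of all genes. The test of whether swimming acted differently with and without AOM/DSS, the interaction, called 0 of 38 collagens in edgeR, with 7 at an unadjusted p under 0.05 and a lowest adjusted p of 0.118, for Col16a1. DESeq2 called 3 there, Col12a1, Col16a1 and Col27a1, beside 5.52% of all genes. All 3 had a smaller difference between Model_Swim and Ctrl_Swim than between Model and Ctrl. Col16a1 was called in edgeR without Ctrl_Swim 2, beside 1.24% of all genes. No gene of the whole table passed the interaction test in edgeR, where 2947 had an unadjusted p under 0.05, and DESeq2 called 777.

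The comparison of Ctrl_Swim with Ctrl asks what swimming changed in untreated colon. No collagen passed the test in edgeR (0 of 38, beside 0.969% of all genes), 11 had an unadjusted p under 0.05 and the lowest adjusted p was 0.135, for Col27a1. DESeq2 called Col27a1 higher, beside 4.92% of all genes called in either direction. Without overlap in CPM, 10 tested collagens lay higher in Ctrl_Swim and 4 lower, beside 12.6 and 14.9% of all genes. The 4 lower were the fibrillar Col1a1 and Col3a1, with Col6a5 and the short-chain Col8a2, at log2 fold changes of -0.27, -0.34, -0.48 and -0.26. In FPKM the ranges of Col1a1, Col3a1 and Col8a2 overlapped between these groups, and that of Col6a5 did not. The 10 higher were Col27a1, Col11a1, Col12a1, Col14a1, Col9a2, Col18a1, Col4a3, Col23a1, Col17a1 and Col28a1. With Model 3 left out of the shared fit, 1 collagen, Col27a1, was called, beside 1.65% of all genes. Leaving it out changes the estimate of the spread, the scaling and the set of genes tested.

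Collagen chains are hydroxylated, folded, cut and cross-linked by a set of enzymes and chaperones, of which 32 were listed and all tested. In Model 13 rose and 2 fell, beside the 16.5 and 16.2% of all genes given above. The largest increases were those of Lox, which cross-links collagen and elastin, Loxl1, a lysyl oxidase known for its part in elastic fibres, and Bmp1, which removes the end propeptide of fibrillar chains. Lox was 9.88, 8.23 and 8.63 CPM in Ctrl, 7.56, 7.92 and 9.71 in Ctrl_Swim, 32.2, 26.4 and 29.5 in Model, and 17.8, 18 and 25.9 in Model_Swim. All Model mice were above all Model_Swim mice, which were above all others. Lox rose by 1.72 ± 0.17 on the log2 scale (adjusted p = 0.000316), Loxl1 by 0.88 and Bmp1 by 0.88. The 2 that fell were P4hb, the common subunit of the prolyl hydroxylase and a general folding enzyme, and Ppib, a prolyl isomerase of the endoplasmic reticulum, each at -0.29. Both serve other secreted proteins as well.

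Between Model_Swim and Model none of the 32 passed the test in edgeR (4 at an unadjusted p under 0.05), and Lox was at -0.52 (adjusted p = 0.229). Between Model_Swim and Ctrl_Swim 5 rose and 1 fell in edgeR, beside 3.49% of all genes higher and 1.69% lower. Lox rose by 1.29 (adjusted p = 0.00398). The 1 that fell was Colgalt2, a collagen galactosyltransferase named after its values were seen (-1.27, adjusted p = 0.0480). Of 10 tested genes for collagen receptors and uptake, 4 rose in Model and none fell, beside 16.5% of all genes higher and 16.2% lower. Ctsk, a collagen-cleaving lysosomal protease, rose by 1.09, Mrc2, which takes up collagen fragments into mesenchymal cells, by 0.90, and Lair1, an inhibitory collagen receptor of leukocytes, by 0.67 on the log2 scale.

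Markers of the cells that make or border collagen moved as well. Of 10 fibroblast genes that are not collagens, 7 rose in Model, with a summed level of 578 to 624 CPM in Ctrl, 685 to 796 in Ctrl_Swim, 905 to 1049 in Model and 883 to 940 in Model_Swim. Of 10 endothelial genes 4 rose, of 8 leukocyte genes all 8, of 5 tested pericyte genes 2, and of 10 colon epithelium genes 5 fell. Over all genes 16.5% were higher and 16.2% lower. The summed pericyte level was not higher in Model (325 to 502 CPM) than in Ctrl (443 to 502 CPM). The endothelial sum was 386 to 403 CPM in Ctrl, 446 to 581 in Ctrl_Swim and 454 to 502 in Model. The part of these shifts in the collagen differences was not tested.

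Among the 44 genes, several lie side by side in the genome (GRCm38.p6). Col3a1 and Col5a2 are neighbours on chromosome 1, 24624 bases apart and facing each other, and both rose in Model. Col4a1 and Col4a2 rose together, while the similar head-to-head pairs Col4a3 with Col4a4 and Col4a5 with Col4a6 did not pass the test. On chromosome 9, Col6a5 fell, and its neighbour Col6a4 did not pass the test. The strand setting of the counting was not stated, so how reads in the overlap of Col4a1 and Col4a2 were counted is not known.

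Promoter windows from RefSeq were at hand for 35 of the 44 genes. The 250 bases before the start of Col1a2 (chr6:4505368-4505617, plus strand) are shown because this gene rose in Model and its window holds both motifs searched, with GGGCGG, the GC box, and CCAAT, the CCAAT box, in capitals.
Col1a2: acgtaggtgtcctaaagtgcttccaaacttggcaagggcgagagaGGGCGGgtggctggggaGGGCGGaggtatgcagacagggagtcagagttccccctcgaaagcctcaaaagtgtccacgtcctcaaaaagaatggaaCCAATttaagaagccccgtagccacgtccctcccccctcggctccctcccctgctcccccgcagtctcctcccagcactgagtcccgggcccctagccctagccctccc
Both motifs were searched on both strands. GGGCGG was found in 9 of 15 windows of collagens that rose in Model, 12 of 18 windows of the other tested collagens and 32.7% of all windows. CCAAT was found in 8 of 15, 4 of 18 and 33.8%. These are matches of letters and not sites of binding.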

How the data were processed

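RNA was sequenced from colorectal tissue of 12 mice in 4 groups, with TruSeq Stranded mRNA libraries. The paper names TRIzol for RNA extraction and the sample descriptions a mirVana kit. The authors trimmed reads, used HISAT2 for alignment to GRCm38.p6, used HTSeq-count for reads per gene, and deposited raw counts and FPKM values from Cufflinks for 18514 genes. Versions, the annotation release and the strand setting are not given in the sources used here. Groups came from the sample labels. The counts were scaled by TMM and tested in edgeR 4.0.16 (R 4.3.3) with a quasi-likelihood fit of all 4 groups, after filterByExpr with a minimum count of 10, which kept 15484 genes, with Benjamini-Hochberg adjustment within each comparison. A gene was called at an adjusted p under 0.05. CPM values are TMM-scaled, and FPKM values are as deposited and carry no TMM factor. Counts of genes without overlap between groups were made on CPM. Total counts of 17256953 to 19451055 make 3 counts worth 0.154 to 0.174 CPM, which covers counting error only. The alternatives were DESeq2 1.42.0, its size factors in edgeR, no low-count filter, a separate fit for each pair of groups, a block for the replicate number, covariates for acinar, squamous and smooth muscle genes and for library sets, limma 3.58.1 on log2 FPKM with a pseudocount of 1 or 0.1, and leaving out each mouse. The collagen genes and the gene lists were chosen with earlier results of these data known. Values are given by mouse for the 12 collagens of highest mean FPKM and those past a 2-fold change, and of the enzyme and receptor lists up to 3 called genes with the largest changes each way in Model against Ctrl are named. The code was tested on simulated counts. Gene positions and sequences were taken from RefSeq and GENCODE tables of GRCm38.p6, where all 44 symbols were found.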

Additional observations from a re-analysis of the deposited data

How the results depend on the processing

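Of 26 alternative settings per comparison (25 for the interaction), the count of called collagens stayed within 1.5 times the one given in 25 for Model against Ctrl, 23 for Model_Swim against Model, 22 for Ctrl_Swim against Ctrl, 20 for Model_Swim against Ctrl_Swim and 23 for the interaction. Where the count given was 0, only 0 counted as unchanged, and the 2-fold setting could give nothing else. Several settings, the term for library sets among them, called no gene of the whole table in those comparisons and so could call no collagen. Requiring a 2-fold change as well left 6 in Model against Ctrl and 0 in Model_Swim against Ctrl_Swim. DESeq2 called 3 in Model_Swim against Model, 1 in Ctrl_Swim against Ctrl and 3 in the interaction, beside 2.33, 4.92 and 5.52% of all genes. A fit of only the groups compared called 1 in Ctrl_Swim against Ctrl, beside 2.49% of all genes. Leaving out Model 1 and Model 3 together, a setting chosen after seeing the data, left 1 Model mouse, so its counts are not given. Leaving out 1 mouse at a time gave 15 to 20 in Model against Ctrl, 0 to 3 in Model_Swim against Model, 0 to 1 in Ctrl_Swim against Ctrl, 5 to 14 in Model_Swim against Ctrl_Swim and 0 to 1 in the interaction. The shares called over all genes were 20.1 to 35.8%, 0.0382 to 5.62%, 0 to 1.93%, 1.08 to 9.3% and 0 to 4.57% in that order. Counting type IV alone as basement membrane left 2 of its 4 calls in Model and 2 of its 3 in Model_Swim against Ctrl_Swim. The causes were not tested. The replicate numbers were not taken to pair the samples, as 4 of 15 same-number pairs had a correlation of deviations above 0.1 (range -0.261 to 0.564). Pairs of unlike number ranged from -0.557 to 0.451, so this check does not settle whether the numbers pair the samples. With the number as a block, Model_Swim against Ctrl_Swim kept 1 call (Col4a2). The share called over all genes there fell from 5.18% to 0.258%. Depth limits the 6 untested collagens and those below about 1 FPKM.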

Other observations

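The summed CPM of all 44 collagens was divided by that of the 10 fibroblast genes in each mouse, a ratio chosen after the values were seen and not tested. It was 4.99, 4.16 and 4.09 in Ctrl, 3.26, 3.402 and 2.997 in Ctrl_Swim, 4.99, 4.50 and 4.16 in Model, and 3.77, 3.91 and 4.57 in Model_Swim. The Ctrl_Swim mice lay below all others, and the Model range lay within that of Ctrl. In the Ctrl_Swim mice all 10 fibroblast genes had a positive log2 fold change against Ctrl, 1 of them past the test, beside Col1a1 and Col3a1 at -0.27 and -0.34, which did not pass it.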
